A study of Homo sapiens with 6 samples.

Results

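The replication-dependent histone genes encode the histones that package newly made DNA, and their transcripts were compared between DLD-1 cells treated with control siRNA and with AHR siRNA. DLD-1 is an established human colorectal cancer cell line, and AHR encodes the aryl hydrocarbon receptor, a DNA-binding regulator of transcription switched on by small molecules. The series holds 6 RNA-seq libraries, 3 from cells transfected with control siRNA and 3 from cells transfected with AHR siRNA, with no other treatment named. The sources used here do not give the siRNA sequences, the time after transfection or the selection of RNA. The replicates are not tied to separate cultures by any label, so the tests rest on how far these libraries differ, and that spread may be technical. Members were the genes whose current symbol is H1-1 to H1-6 or begins with H2AC, H2BC, H3C or H4C followed by a number only, with a count in at least 1 library. Of 69 such symbols, 65 were matched to the count tables and 54 had a count, out of 30458 genes with a count in the whole series. The other 11 were listed at 0, and H2AC18, H2AC19, H3C2 and H3C3 were not analysed here. At the edge of the rule, H1-6, H3C14, H4C13 and H4C7 had 1 count each in all 6 libraries together, and H1-1, H2BC1, H3C15 and H4C6 were among those with none.

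Core histones H2A, H2B, H3 and H4 form the spool around which DNA is wound, and H1, the linker histone, binds where DNA enters and leaves it. In dividing cells their genes are transcribed mainly in S phase, and the messages end in a conserved stem-loop instead of a poly(A) tail. The stem-loop is bound by the protein SLBP, which takes part in the processing, export, translation and decay of the message. Some of these genes also give longer, polyadenylated transcripts that run past the stem-loop, which are known from cells that have left the cell cycle. The genes lie in a large cluster on chromosome 6 (HIST1) and smaller ones on chromosome 1 (HIST2 and HIST3) and chromosome 12 (HIST4). Members of a core histone class code for near-identical proteins, and reads may fit several copies, so the values of single genes are uncertain.

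The libraries held 11567736 to 15037145 counts, and the members together took 1274 to 1480 counts in control libraries and 2372 to 2706 in AHR siRNA libraries. AHR, the targeted gene, had levels of 117, 144 and 132 CPM (counts per 1000000 counts, scaled by TMM, edgeR's trimmed mean of M-values) with control siRNA and 95.8, 87.4 and 95.0 CPM with AHR siRNA, in replicates 1 to 3 of each. Its log2 fold change was -0.50 (SE 0.08, edgeR adjusted p = 1.98e-05), and the 2 groups did not overlap. Of 9 listed epithelial markers, KRT8, KRT18, CDH1 and EPCAM stood at means of 742 to 6359 CPM in control libraries. CDX2 was at 225, KRT20 at 61.5, VIL1 at 7.47 and LGALS4 at 1.28 CPM, and CDX1 was not tested. Of the 8 tested, 5 were lower with AHR siRNA and 1, VIL1, was higher, against 30.1% and 30.0% of all tested genes. The 5 leukocyte, 3 endothelial and 6 fibroblast markers summed to 1.31 to 3.93 CPM per list and library, a range that LGALS4 did not exceed. LUM and DCN, both of the fibroblast list, were at 0. As a check on the selection of RNA, 17 RNAs without a poly(A) tail were looked up: 10 were at 0 in all libraries, among them TERC, RMRP and RPPH1, and the 17 summed to 0.414 to 0.923 CPM per library. These counts cannot settle how RNA was selected, since the handling of reads with several matches is not given. The part of these values in the histone results was not tested.

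Stem-loops were searched in the GENCODE 29 transcripts of the members, on the transcript's own strand, as a fully paired stem of 6 bases around a loop of 4, with GG at the 5' end, pyrimidines and T after it, T at alternate loop positions from the first, and A, purines and CC on the 3' side. They are shown because the stem-loop is where the usual histone message ends, and reads past it would come from a longer transcript. Of the 54 members, 25 (46.3%) held one in an annotated transcript, against 14 of 58611 other genes. Of the 29 without one, 24 had a model of the coding part only, with no bases past it in which a stem-loop could be found. The sites of 7 members that changed are given 5' to 3' with the stem-loop in capitals, and coordinates are those of the capitals in GRCh38 by GENCODE 29.
H2BC5 (chr6:26158587-26158602, plus strand): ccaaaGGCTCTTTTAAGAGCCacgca
H2AC6 (chr6:26124669-26124684, plus strand): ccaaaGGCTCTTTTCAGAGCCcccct
H2BC21 (chr1:149886188-149886203, minus strand): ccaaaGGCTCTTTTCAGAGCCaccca
H3C10 (chr6:27810516-27810531, plus strand): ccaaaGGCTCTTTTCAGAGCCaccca
H3C6 (chr6:26225596-26225611, plus strand): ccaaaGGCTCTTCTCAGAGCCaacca
H4C9 (chr6:27139654-27139669, plus strand): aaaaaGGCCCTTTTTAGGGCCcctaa
H4C16 (chr12:14770724-14770739, minus strand): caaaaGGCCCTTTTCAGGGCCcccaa
The 25 members shared 5 forms of the 16 bases. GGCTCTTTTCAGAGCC was the most frequent, in 13 members, and the form of H2BC5 was found in 3.

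The summed level of the 54 members was about 2-fold higher with AHR siRNA. It was 111, 88.7 and 98.0 CPM in control siRNA replicates 1 to 3 and 196, 199 and 194 CPM in AHR siRNA replicates 1 to 3, or 198% of the control mean. The groups did not overlap. By class, the 11 H2A genes went from a sum of 7.17 ± 0.88 to 25.1 ± 0.66 CPM (SD, n = 3 each), the 9 H3 genes from 3.83 ± 0.54 to 12.4 ± 1.3 CPM, and the 15 H2B genes from 48.4 ± 3.8 to 109 ± 4.8 CPM. For the 14 H4 genes the sums were 10.6 ± 2.8 and 16.1 ± 2.8 CPM and overlapped between groups, as did those of the 5 H1 genes at 29.3 ± 4.0 and 33.6 ± 1.6 CPM. A few genes carried most of each sum. Among members with too few counts for the tests below, 7 H3 genes summed to 1.11 CPM in controls and 1.13 CPM with AHR siRNA. In the same order, 8 H2A genes summed to 0.79 and 1.51 CPM, and 8 H2B genes to 1.73 and 2.49 CPM. The 11 such H4 genes summed to 1.43 and 1.24 CPM, and the 4 H1 genes to 0.79 and 0.44 CPM. Sums are descriptions without a test, since they pool genes that may share reads. In bulk RNA, more cells with a transcript and more transcript per cell cannot be told apart.

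**Figure D1:**
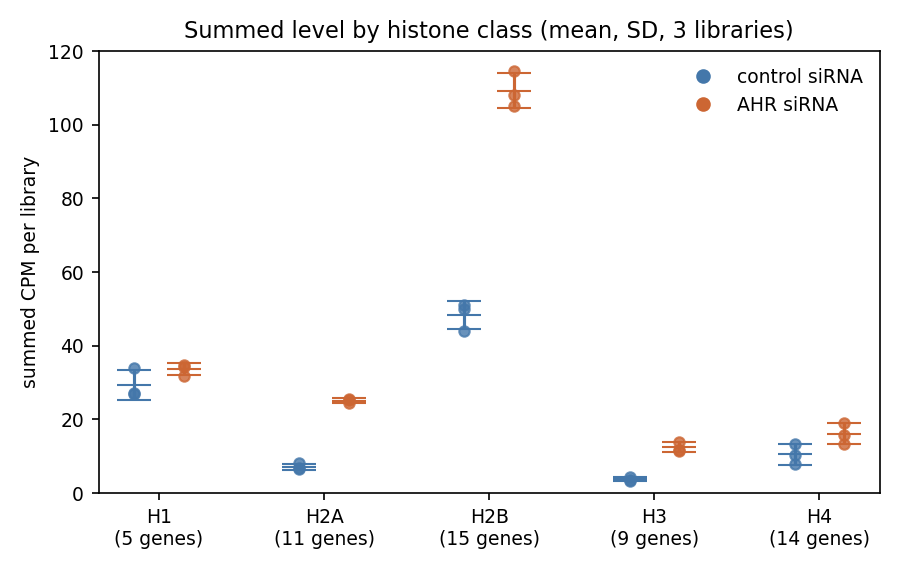
Summed CPM of the members of each histone class (y axis) in each library, with points for libraries and bars for the mean and SD of 3. The H2A, H2B and H3 sums of the 3 AHR siRNA libraries sit above those of all 3 control libraries, while the H1 and H4 sums overlap.

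For tests of single genes, 16 members passed the filter on low counts and 38 did not. Of the 16, edgeR called 13 higher at an adjusted p under 0.05 and none lower, where 60.1% of all 14900 tested genes were called, 30.0% higher and 30.1% lower. The groups did not overlap in 13 members, all higher, against 63.7% of all genes, 32.0% of them higher. These 13 were the called genes other than H4C9, plus H4C8. All 16 estimates were above 0, and none was lower at an unadjusted p under 0.05, nor was any called lower by DESeq2 or limma-voom. The filter asks for about 0.754 CPM in 3 libraries, and 6 of the 16 (H2AC25, H2BC4, H2BC18, H3C6, H4C8 and H4C16) reached it in all AHR siRNA libraries but not in all control libraries, so they passed through the AHR siRNA group and their rise was favoured by the filter. Of the 10 that reached it in every control library, 8 were called higher and 2 were not, with a median log2 fold change of 1.25 against 0.01 over all tested genes.

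**Figure D2:**
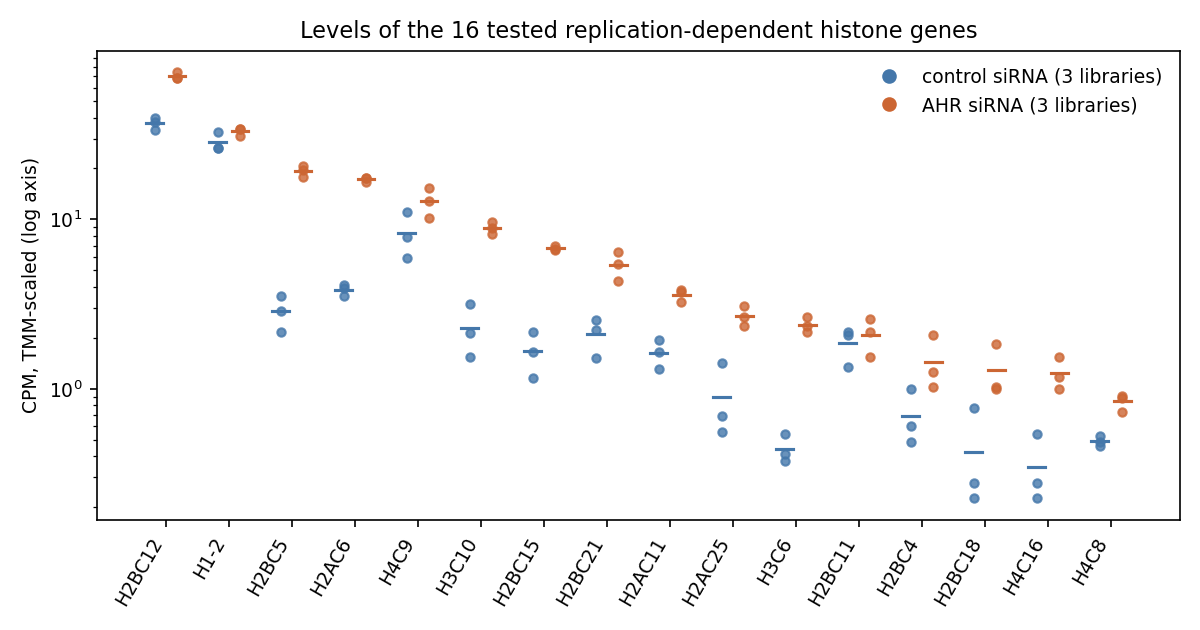
CPM on a log axis for the 16 tested members in each of the 3 control siRNA and 3 AHR siRNA libraries, with a line at each mean and genes ordered by their AHR siRNA level. H2BC5 and H2AC6 show gaps between groups far wider than the spread within them, whereas H1-2 and H2BC11 overlap.

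Among H2B genes, H2BC5 changed most. It stood at 2.18, 2.90 and 3.54 CPM in the control libraries and at 17.9, 19.7 and 20.7 CPM in the AHR siRNA libraries (log2 fold change 2.76, SE 0.15, edgeR adjusted p = 2.60e-11). Every AHR siRNA library was above every control library, and the gene's share of all member counts went from 1.96% to 3.61% in controls to 9.11% to 10.7%. H2BC12 held the most counts of any member, at 40.0, 33.7 and 37.4 CPM in control libraries and 68.0, 74.2 and 68.7 CPM in AHR siRNA libraries (log2 fold change 0.93, SE 0.08, edgeR adjusted p = 8.76e-09). Although its level rose, its share of member counts stayed between 34.6% and 38.1% in all 6 libraries. H2BC15 went from 2.18, 1.66 and 1.15 to 6.63, 6.69 and 6.98 CPM (2.02, SE 0.21), and H2BC21 from 2.55, 1.52 and 2.23 to 4.31, 6.40 and 5.43 CPM (1.37, SE 0.23). Neither gene's groups overlapped.

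The remaining tested H2B genes were at low levels, and H2BC18 and H2BC4 passed the filter through the AHR siRNA group. H2BC18 had 3, 4 and 10 counts in control libraries and 12, 25 and 14 in AHR siRNA libraries (log2 fold change 1.61, SE 0.45, edgeR adjusted p = 0.00482). That call was lost without AHR siRNA replicate 2 (1.26, adjusted p = 0.0520, the highest of 17 alternatives, with the lowest at 0.000923). Without control siRNA replicate 3 the estimate was 2.31. H2BC4 had 8, 7 and 13 against 25, 17 and 14 counts (1.05, SE 0.38, edgeR adjusted p = 0.0241), and lost its call without control siRNA replicate 2 (0.83, adjusted p = 0.105), without AHR siRNA replicate 1 (0.72, adjusted p = 0.153) with DESeq2 (1.06, adjusted p = 0.0636), against a minimum fold of 1.5 (1.06, edgeR adjusted p = 0.197) and at a threshold of 0.01, within a range over alternatives of 0.0127 to 0.197. H2BC11 was the H2B gene without a call: it had 18, 30 and 28 counts in controls and 26, 35 and 21 with AHR siRNA (0.17, SE 0.28, edgeR adjusted p = 0.629). Its estimate turned to -0.025 without control siRNA replicate 1 and to -0.020 without AHR siRNA replicate 2.

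All 3 tested H2A genes were called higher, against 30.0% of all tested genes, and 1 of the 3 passed the filter through the AHR siRNA group. H2AC6 was at 4.13, 3.52 and 3.92 CPM in control libraries and 17.6, 16.7 and 17.6 CPM in AHR siRNA libraries (log2 fold change 2.16, SE 0.13, edgeR adjusted p = 7.75e-11). Together H2AC6 and H2BC5 made up at most 7.61% of member counts in a control library and up to 19.8% with AHR siRNA. H2AC11 went from 1.65, 1.93 and 1.31 to 3.81, 3.24 and 3.75 CPM (1.13, SE 0.23, edgeR adjusted p = 0.000345). H2AC25, the H2A gene of HIST3, had 19, 8 and 9 counts in controls and 32, 42 and 32 with AHR siRNA (1.60, SE 0.32, edgeR adjusted p = 0.000271), and passed the filter through the AHR siRNA group. No overlap between groups was seen for any of these H2A genes.

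Both tested H3 genes were called higher, against 30.0% of all tested genes. H3C10 stood at 3.15, 2.14 and 1.54 CPM in control libraries and at 8.95, 8.16 and 9.69 CPM in AHR siRNA libraries (log2 fold change 1.97, SE 0.20, edgeR adjusted p = 1.00e-07). H3C6 had 5, 6 and 7 counts against 26, 32 and 36 (2.41, SE 0.33, edgeR adjusted p = 3.71e-06), and was another that passed the filter through the AHR siRNA group. Groups were apart for both.

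Of the 3 tested H4 genes, 2 were called higher, against 30.0% of all tested genes. Only H4C9 reached the filter in every control library, and H4C16 and H4C8 passed it through the AHR siRNA group. H4C9 held most of the H4 counts, with 147, 86 and 103 counts in controls and 185, 139 and 174 with AHR siRNA, and in CPM its groups overlapped (log2 fold change 0.62, SE 0.18, edgeR adjusted p = 0.00634). Without AHR siRNA replicate 1 the value was 0.48 with an adjusted p of 0.0578, and over all alternatives, other tools included, the adjusted p ran from 1.24e-06 to 0.637, the highest from edgeR's test against a fold of 1.5. H4C16, the HIST4 gene, had 3, 4 and 7 counts against 12, 16 and 21 (1.83, SE 0.42, edgeR adjusted p = 0.00102). H4C8 had 7, 7 and 6 against 11, 12 and 10 counts and was not called (0.77, SE 0.39, edgeR adjusted p = 0.0987), though its groups did not overlap.

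The linker histone gene H1-2 was the second most counted member and changed least among those with more than 1 CPM in every library, apart from H2BC11. It stood at 33.0, 26.3 and 26.3 CPM in control libraries and at 34.2, 34.1 and 31.2 CPM in AHR siRNA libraries, with control siRNA replicate 1 inside the AHR siRNA range (log2 fold change 0.22, SE 0.10, edgeR adjusted p = 0.0587). It was called higher without control siRNA replicate 1 (0.32, adjusted p = 0.00203), without AHR siRNA replicate 3 (0.26, adjusted p = 0.0440) and in 3 other alternatives, with adjusted p from 0.00203 to 1 over all of them. Since the members' total grew around it, its share of member counts went from 26.8% to 29.7% in controls to 16.1% to 17.4%.

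**Figure D3:**
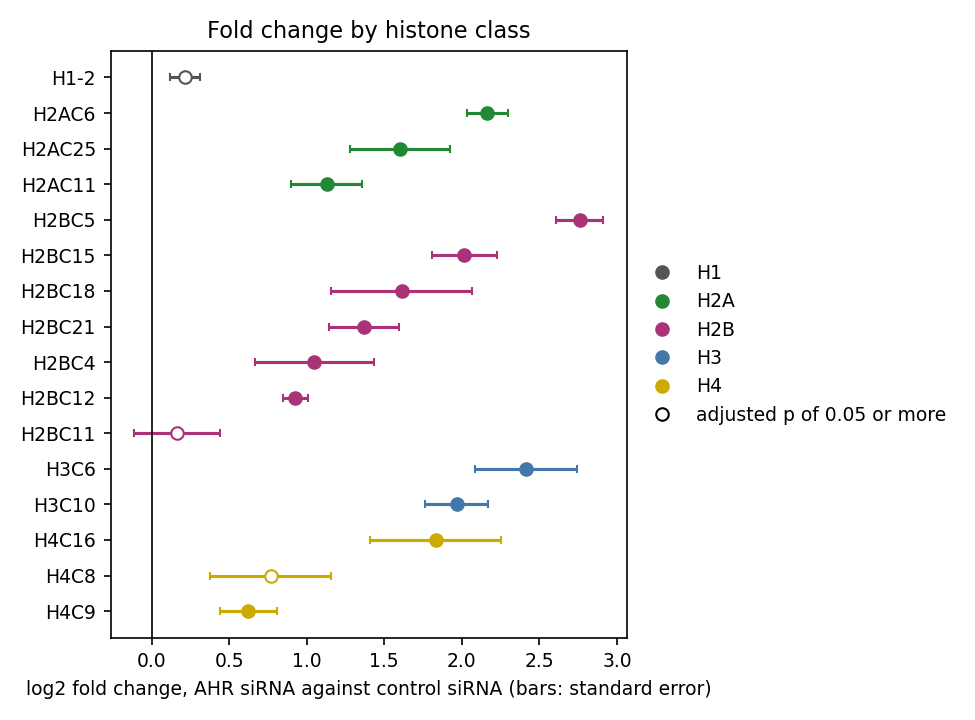
Log2 fold change of each tested member (x axis, bars for the standard error), coloured by class, with open symbols for adjusted p of 0.05 or more. The values run from 0.17 for H2BC11 to 2.76 for H2BC5, and the lowest estimates are those of H2BC11 and H1-2.

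The 38 members that were not tested had 1 to 47 counts over all 6 libraries, with a median of 6, and 21 of them had fewer than 10. Their sum was 6.45, 4.56 and 6.54 CPM in controls and 7.87, 6.47 and 6.10 CPM with AHR siRNA, so the groups overlapped. The mean was higher with AHR siRNA for 19 of them and lower for 19. In all, these genes took 5.14% to 6.67% of member counts in controls and 3.14% to 4.01% with AHR siRNA. Just under the filter, H3C4 had 15 counts in the 3 controls and 32 with AHR siRNA and a mean level of 0.592 CPM over all libraries, next to 0.666 CPM for H4C8, the lowest tested. The others with the highest means were H2AC7, H2BC9, H2BC26 and H1-4.

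These 5 did not move one way. H2AC7 had 2, 1 and 3 counts in controls and 15, 15 and 6 with AHR siRNA, and H2BC26, the H2B gene of HIST3, had 4, 5 and 5 against 12, 9 and 7. H2BC9 had 11, 11 and 5 counts in controls and 6, 5 and 5 with AHR siRNA, and H1-4 had 6, 9 and 10 against 3, 3 and 7. Fitted with no filter, all 54 members could be tested: H2AC7 joined the 13 higher calls (log2 fold change 2.56, edgeR adjusted p = 0.000132), H2BC26 and H3C4 were not called, and 1 member was called lower, where that fit called 15.0% of 30458 genes higher and 15.2% lower. That member, H3C12, named here after its values were seen, had 4, 6 and 6 counts in controls and 0, 1 and 0 with AHR siRNA (edgeR adjusted p = 0.00640). At an unadjusted p under 0.05, 18 of the 54 were higher and 2 lower in that fit, and 35 estimates were positive and 19 negative.

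**Figure D4:**
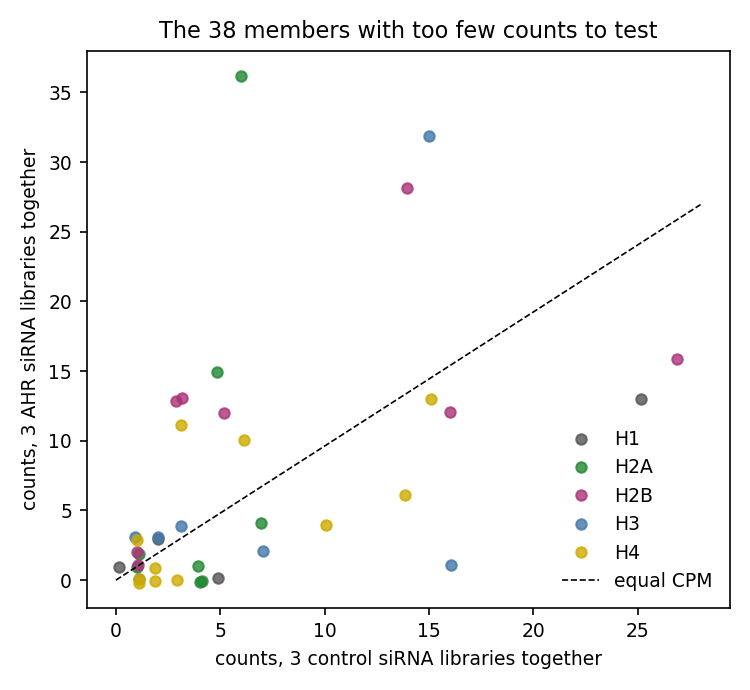
Counts summed over the 3 AHR siRNA libraries (y axis) against counts summed over the 3 control libraries (x axis) for the 38 members not tested, coloured by class, with a dashed line at equal CPM and points shifted slightly to separate ties. Points fall on both sides of the line, with H2AC7 far above it and H3C12 far below.

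Members differed in how much of a transcript their annotated model covers, which sets where a read could be counted. In GENCODE 29, 20 members had a transcript that ran 100 bases or more past its stem-loop, in 5 the transcripts with a stem-loop ended within 100 bases of it, 24 had the coding part only, and 5 had a longer model with no stem-loop. In the 20 with a long model, 5 members passed the filter in every control library and were called higher (H2AC6, H2BC15, H2BC21, H3C10 and H4C9), and the other 6 tested passed through the AHR siRNA group. The sum of the 20 went from 23.2 ± 4.8 to 63.6 ± 2.6 CPM (SD, n = 3 each), or 274% of control. Of the 5 with a longer model and no stem-loop, H2AC11 and H2BC11 were tested, with longest transcripts of 2250 and 950 bases. Both passed the filter in every control library, and H2AC11 was called higher (log2 fold change 1.13) while H2BC11 was not called (0.17). Among the 24 with the coding part only, H1-2 and H2BC12 were tested, both passing in controls, and H2BC12 was called. The sum of the 24 went from 68.4 ± 7.5 to 107 ± 4.3 CPM, or 156% of control. Most of that sum came from H1-2 (means of 28.5 and 33.2 CPM) and H2BC12 (37.0 and 70.3 CPM), so it mainly reflects these genes. A longer model collects more counts and so passes the filter more easily, and length and fold change cannot be told apart here. H2BC5 has 2 annotated transcripts: an unspliced one of 496 bases that ends 39 bases past the stem-loop, and a spliced one whose first exon ends before the stem-loop and whose second exon (chr6:26170975-26171349, 375 bases) begins 12373 bases past it. It was the only 1 of the 5 members in its group with an annotated end 100 bases or more past the stem-loop. Counts of the 2 transcripts cannot be told apart in a table of genes.

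The longest annotated run past the stem-loop was 1862 bases among tested members, in H3C6, and 1128 bases in H2AC6, 1729 in H2BC21 and 769 in H3C10. In the untested members with no stem-loop in their model, 25 genes, the sum was 3.81 ± 1.03 CPM in controls and 3.54 ± 0.14 CPM with AHR siRNA, and the groups overlapped. In the 9 untested members with a long model it was 1.72 ± 0.25 and 2.53 ± 0.82 CPM. The count tables hold 1 number per gene, so whether the counted reads lie before or past the stem-loop cannot be read from them. Of the 54 IDs, 45 had the same version as in GENCODE 29, and the sources used here do not name the annotation behind the counts. H2BC5, H2BC15 and H2BC18 overlap other annotated genes, and with the strand setting of the counting not given their values are uncertain for that reason too.

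By level per length, the order of genes was steep. Per kilobase of annotated exon, H2BC12 stood at 97.2 CPM in controls and 185 with AHR siRNA, and H1-2 at 44.5 and 51.6, both over the coding part only. H4C9 followed at 6.41 and 9.87, H2BC5 at 3.30 and 22.3, H2AC6 at 2.31 and 10.4, H2BC11 at 1.96 and 2.20, and H3C10 at 1.84 and 7.22 CPM per kilobase. H2BC5 thus ranked below H4C9 in controls and above it with AHR siRNA.

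Summed levels were higher with AHR siRNA in all of the gene clusters. In HIST1, 43 members summed to 94.7 ± 10.1 CPM in controls and 185 ± 1.6 CPM with AHR siRNA (SD, n = 3 each), and of the 9 tested genes that passed the filter in every control library 7 were called higher, against 30.0% of all tested genes. HIST1 is made of 3 blocks of genes in GRCh38: the first, with 24 members between 25726132 and 26285638 on chromosome 6, reached 194% of control, the second, with 5 members between 27125897 and 27147515, reached 182%, and the third, with 14 members between 27807444 and 27893843, reached 318%. The sum of the third block went from 5.41 to 17.2 CPM. Most of it came from its 2 tested genes, H3C10 (means of 2.28 and 8.93 CPM) and H2BC15 (1.66 and 6.77 CPM), so it mainly reflects these genes. The 8 members of HIST2 on chromosome 1 went from 2.95 ± 0.82 to 7.21 ± 1.44 CPM, the 2 of HIST3 from 1.23 ± 0.44 to 3.42 ± 0.48 CPM, and H4C16 alone stands for HIST4. In HIST3 and HIST4 no tested gene reached the filter in every control library. Counts there were low: 50 in controls and 134 with AHR siRNA for HIST3, and 14 and 49 for HIST4. Within each of these clusters the sums of the groups did not overlap, and the differences between clusters were not tested.

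Many H2A and H2B genes sit head to head and share a promoter, which often carries the octamer ATTTGCAT, a binding word of the factor OCT1 (POU2F1). RefSeq promoters (GRCh38.p14, 250 bases before to 50 after the start) were found for 49 of the 54 members, and 20 (40.8%) held the octamer on either strand, against 2.19% of 27305 genes. These were 8 of 10 H2A, 11 of 15 H2B and 1 of 7 H3 promoters, and none of the H1 or H4 ones. Some promoters share a site, so the 20 are not all separate octamers. The site of the H3 gene, H3C4, is the same as that of H2AC7 and H2BC7. Windows around the octamer, in capitals, are shown for the 7 tested genes that hold it, read on the strand of the H2B gene.
H2BC4 and H2AC6, shared (chr6:26124032-26124059, minus strand): ttcatacctcATTTGCATagctctgccc
H2BC11 and H2AC11, shared (chr6:27132825-27132852, minus strand): tcttcaccttATTTGCATaagcgattct
H2BC12 (chr6:27146887-27146914, minus strand): tcttcaccttATTTGCATgagaggtcct
H2BC21 and H2AC20 (not tested), shared (chr1:149886711-149886738, minus strand): cggagccctaATTTGCATaaggtggtta
H2BC18 (chr1:149812402-149812429, minus strand): gcgagtcttcATTTGCATacgggctcta
Of the tested members that passed the filter in every control library, 4 of 5 with the octamer and 4 of 5 without it were called higher, against 30.0% of all tested genes. H2BC11 was the exception among the former and H1-2 among the latter, which include H2BC5.

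Of 9 head-to-head pairs of members with starts at most 1000 bases apart, both genes were tested in 2. In the pair of H2BC4 and H2AC6 both were called higher, and in that of H2BC11 and H2AC11 the H2A gene was and H2BC11 was not. H2BC4 passed the filter only through the AHR siRNA group, so its pair was included through that group. Its call was also lost in some alternatives, as given above. The log2 ratio of H2BC11 to H2AC11 counts (1 added to each) was -0.28, 0.10 and 0.69 in controls and -0.80, -0.32 and -1.24 with AHR siRNA, a change of -0.96. For H2BC4 to H2AC6 the change was -1.16. In both pairs every AHR siRNA library had the lower ratio, and the exact two-sided permutation p was 0.10 for each, unchanged by Benjamini-Hochberg adjustment over the 2 pairs, which is the smallest that 3 against 3 allows.

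Other promoter words also set the classes apart. CCAAT, the binding word of NF-Y, was in all 37 promoters of H1, H2A, H2B and H3 members and in 2 of 12 H4 promoters, against 39.7% of all genes. The E2F-like word TTTCGCGC was in 11 of 49, all but 1 of them H2A or H2B, against 0.630% of all genes, while TTTGGCGC was in none. TATAAA was in 33 of 49, against 14.0%. GCGTG, the core of the element that AHR binds, was in 7 of 49 member promoters (14.3%) and in 40.6% of all genes. Among tested members it was in the windows of H2BC11 and H3C6 only. All words were searched on both strands, and a match is a description of the letters in this window.

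Among genes of other kinds next to the clusters, calls went both ways. Of 24 tested non-histone genes within or beside them, 10 were higher, 3 lower and 11 not called, against 60.1% of all tested genes called, 30.0% higher and 30.1% lower, with a median log2 fold change of 0.13. HFE, a regulator of iron uptake inside HIST1 and the nearest tested neighbour of H2BC4, rose from 15.4 ± 0.3 to 22.8 ± 2.3 CPM (0.56, SE 0.10). The zinc finger gene ZNF184 rose by 0.85 (SE 0.13), and ZNF391 by 0.76 (SE 0.12). BTN2A1, a butyrophilin gene, was lower at -0.46 (SE 0.08). Beside HIST2, the splicing factor gene SF3B4 was lower at -0.33 (SE 0.07), and beside H4C16, GUCY2C, an intestinal receptor gene, was higher at 1.65 (SE 0.41) from 0.393 CPM while WBP11 was not called (0.07, SE 0.06).

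Histone variants outside the rule, most of them with poly(A) tails on their messages, were also counted. Of 10 tested, 8 fell, H3-3A rose and MACROH2A2 passed no threshold, with a median log2 fold change of -0.76. Over all tested genes, 30.1% were called lower and 30.0% higher. H2AZ1, an H2A variant of promoters, fell from 318 ± 31 to 126 ± 15 CPM (-1.33, SE 0.09, edgeR adjusted p = 1.89e-10). H2AZ2, its close paralog, fell to 58.3% and H1-10, a linker histone variant, to 55.6% of control. H2AX, the variant marked at DNA breaks, was at -0.74 (SE 0.08). Of the genes for H3.3, the replacement H3, H3-3A rose (0.38, SE 0.07) and H3-3B fell (-0.36, SE 0.07). H2AJ had 2 counts in all.

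Genes that make, process and handle histones and their messages were counted in the same way. Of 25 tested genes for histone mRNA transcription, 3' end processing and decay, 17 fell, TUT4 rose and 7 had no call (median -0.35). Of all tested genes, 30.1% were called lower and 30.0% higher. SLBP fell from 179 ± 6 to 104 ± 7 CPM (-0.79, SE 0.07, edgeR adjusted p = 1.04e-08), and ERI1, an exonuclease that trims the histone 3' end, fell to 51.0% of control. NPAT, the coactivator of histone gene transcription, was at -0.48 (SE 0.10), the helicase gene DHX9 at -0.71 and E2F1 at -0.81, and POU2F1 at -0.24 (SE 0.09). TUT4, a uridylyltransferase gene, was the higher one at 0.35 (SE 0.08). Of 26 tested genes of histone chaperones and import, 19 were lower and 3 higher (median -0.49), against the same shares of all tested genes. The H2A.Z chaperone gene ANP32E fell to 25.2% of control, and HJURP, the chaperone of the centromeric H3, to 35.5%. The H4 acetyltransferase gene HAT1 fell to 37.5% and ASF1B to 36.7%. Its paralog ASF1A was higher at 0.46 (SE 0.08), as were CABIN1 at 0.39 and ATRX at 0.45.

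All 24 genes of an S-phase list were called lower, against 30.1% of all tested genes, with a median of -1.25. The list was chosen with earlier results of these data known, and E2F1 is also in the list for histone mRNA. CDC6, which licenses origins, fell to 28.5% of control, CCNA2, which encodes the S-phase cyclin A, to 37.4%, MCM5 to 38.1% and MCM4 to 40.7%. In the same 6 libraries the S-phase genes thus fell while the summed replication-dependent histones rose. That rise was mostly in tested members. The 38 untested ones summed to 5.85 ± 1.12 CPM in controls and 6.81 ± 0.93 CPM with AHR siRNA, and the groups overlapped. Their means were higher with AHR siRNA in 19 and lower in 19. The part of any of these lists in the histone values was not tested.

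**Figure D5:**
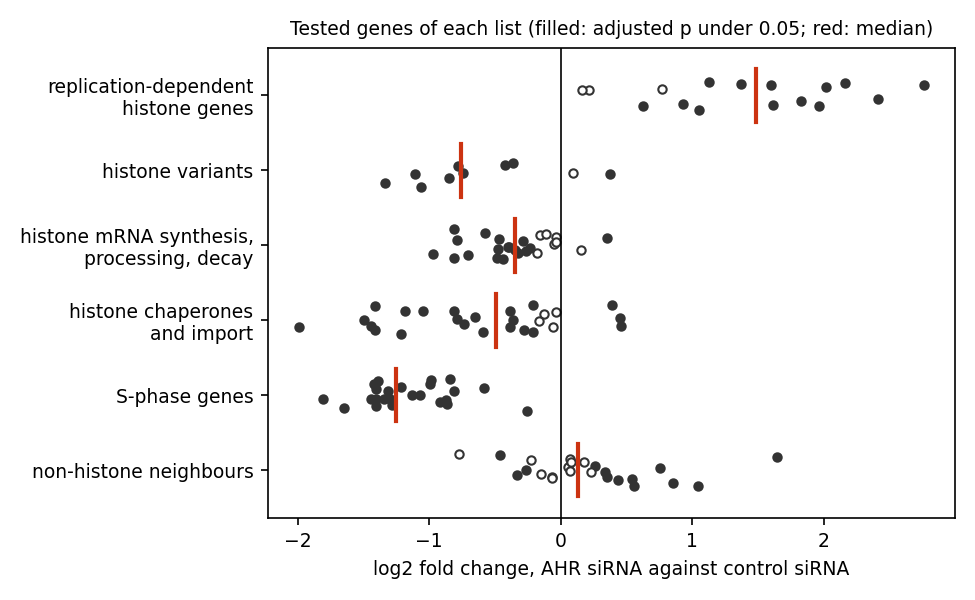
Log2 fold change (x axis) of each tested gene in 6 lists, with filled points for adjusted p under 0.05 and a red line at each list's median. The replication-dependent histone genes lie to the right of 0 with a median of 1.48, of which 6 genes passed the filter through the AHR siRNA group, and the S-phase genes lie to the left of 0 with a median of -1.25.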

How the data were processed

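RNA of DLD-1 cells was measured in 3 control siRNA and 3 AHR siRNA libraries, grouped by their titles. The authors deposited whole-number read counts per Ensembl gene, 1 table per library. The submitters' processing notes name TopHat2 2.0.11, HTSeq, hg19 and GRCh37 without saying what each was for, and the sources used here give neither the strand setting nor the handling of reads with several matches. Gene models and coordinates are from GENCODE 29 (GRCh38), and promoters from RefSeq (GRCh38.p14). Reads that fit several histone copies may have been dropped or split. IDs were matched without version to a table of gene names (56321 of 60483). Counts were fitted on the whole table with edgeR 4.0.16 in R 4.3.3 (filterByExpr, TMM, quasi-likelihood test on group), with Benjamini-Hochberg adjustment over 14900 genes. CPM use the TMM-scaled sum of tested counts, and SE is the size of the log2 fold change over the square root of F. The fit was tested on simulated data. Alternatives used DESeq2 1.42.0, limma 3.58.1, other scalings and filters, a replicate block, and each library left out. Named genes are AHR, every tested member, the 5 untested members with the highest mean CPM, those at the edge of the rule, up to 4 called genes with the smallest p in each other list, SLBP, NPAT, H2AX, H2AZ1, H2AJ, H3-3A and H3-3B, nearest tested neighbours of called members, and list genes that moved against the rest. POU2F1, MACROH2A2 and H3C12 were added. Some listed genes are not reported here by name. The members and lists were chosen with earlier results of these data known.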

Additional observations from a re-analysis of the deposited data

How the results depend on the processing

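The 13 higher histone calls stood at 11 to 15 calls over 17 alternatives. Those of H2AC6, H2AC11, H2AC25, H2BC5, H2BC12, H2BC15, H2BC21, H3C6, H3C10 and H4C16 held in all 17. Of these, H2AC25, H3C6 and H4C16 passed the filter of the main fit through the AHR siRNA group, which favoured their rise. H2BC4 lost its call in 5 alternatives, H4C9 in 2 and H2BC18 in 1, as given above, and H2BC11 turned to -0.025 and -0.020 without control siRNA replicate 1 and AHR siRNA replicate 2 (range with a library left out -0.025 to 0.35). With no filter, 1 member was called lower. With library totals alone the median gene shifted by 0.15 on the log2 scale, 64.7% of called genes were higher, against 4474 of 8953, H4C8 (0.91) and H1-2 (0.37) were called, and the H2B sum ratio was 1.32 on the log2 scale; the cause was not tested. The summed log2 ratio of all members was 0.90 to 1.06 with a library left out, 1.06 without the 4 most counted members, and 0.22 for the members not tested, both sets chosen after seeing the data. Against a minimum fold of 1.5 (glmTreat), fewer genes can pass: 1316 were higher and 1197 lower in all, AHR (-0.50) was not called, and the lists gave 0 higher variants, 0 higher and 4 lower processing genes, 0 higher and 11 lower chaperone genes, and 2 higher and 0 lower neighbours. Upper-quartile factors or library totals gave 2 higher processing genes, library totals 2 higher variants, and leaving out libraries 1 to 2 higher processing genes. Whether replicate numbers pair the samples was not settled: same-numbered deviations correlated at 0.27, -0.06 and 0.21, and not every sample correlated best with its own number. With the replicate block, 14 members were higher (H1-2 added, 0.22), and 4788 and 4810 genes were called. Depth limits the 38 untested members.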
